A study of Mus musculus with 8 samples.

Results

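The data described here are the levels of 10 genes of bone morphogenetic protein (BMP) signalling in mouse embryonic stem cells: the inhibitor-of-DNA-binding genes Id1, Id2, Id3 and Id4, the ligand gene Bmp4, the receptor gene Bmpr1a, and Smad1, Smad5, Smad6 and Smad9. They were taken by symbol from a table of 61535 loci, of which 50060 carried a gene name, and all 10 were found, each at 1 locus. RNA of 8 libraries was sequenced, 2 in each of 4 groups of blastocyst-derived C57BL/6J cells that carry Mll1fl/fl and Cre-ER TM, kept with LIF on embryonic fibroblast feeder cells. MM401 cells received MM401, an inhibitor of MLL1, at 100 µM, Mll1-deleted cells received 4-hydroxytamoxifen (4-OHT) at 5 µM to delete the floxed gene, and 2i cells received a pair of kinase inhibitors, PD03259010 against MEK at 1 µM and CHIR99021 against GSK3 at 3 µM. Each treatment lasted 5 days. Untreated cells had the same floxed genotype and no agent. Per the labels, MM401 and 4-OHT were given in serum medium and 2i in serum replacement medium, so effects of the inhibitors and of the medium on 2i cells cannot be told apart. For untreated cells no medium is stated in the labels, and no vehicle control was among the groups.

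BMP ligands bind paired type I and type II serine/threonine kinase receptors, which phosphorylate SMAD1, SMAD5 and SMAD9, and these enter the nucleus with SMAD4. SMAD6 and SMAD7 inhibit the pathway and are themselves induced by it, as are the ID genes. ID proteins have a helix-loop-helix but no basic DNA-binding region, so they pair with E proteins and keep them off DNA. In mouse embryonic stem cells BMP4, acting together with LIF, is known to hold back neural differentiation through ID proteins.

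Each group has 1 deposited value, the FPKM, which is a fragment count scaled to transcript length and library size, made by the authors from both libraries, with a lower and an upper limit, given here in square brackets. No spread between libraries can be had from such values, and no test was run. Loci that reached 1 FPKM in at least 1 group of a pair were compared. They were called higher or lower where FPKM + 1 differed 2-fold or more, a log2 ratio of 1, and ratios from here on are log2 ratios of FPKM + 1 unless a fold of FPKM is named. Total estimated counts were 76501619 in MM401, 88203834 in Mll1-deleted, 90728747 in 2i and 84503307 in untreated cells. Kmt2a, the Mll1 gene, had an FPKM of 14.6 [10.3 to 18.8] in MM401, 11.8 [8.71 to 14.9] in Mll1-deleted, 8.72 [6.11 to 11.3] in 2i and 15.5 [11.4 to 19.7] in untreated cells. The value is for the whole locus, so the floxed part was not checked. All 10 stem cell markers had at least 28.8 FPKM in every group, which was the level of Zfp42 in MM401 cells. Of these, 3 were lower in MM401 than in untreated cells, Utf1 (−1.68), Pou5f1 (−1.57) and Tdgf1 (−1.56). Pou5f1 had 294 [222 to 366] FPKM in MM401 and 874 [689 to 1059] in untreated cells. In Mll1-deleted and 2i cells 0 markers were past the rule. The 16 fibroblast markers, listed for the feeder cells, summed to 1530.2 FPKM in MM401, 697 in Mll1-deleted, 3138 in 2i and 1072 in untreated cells, and none was at 0. Most of the 2i sum came from the joint locus of Col3a1 and AC125167.1, at 1884 [0 to 4039]. That locus was the largest value in the other groups too, at 676 in MM401, 351 in Mll1-deleted and 547 in untreated cells. Its limits reached down to 0 in each group. The median FPKM of the 16 was 32.9 in MM401, 14.5 in Mll1-deleted, 34.0 in 2i and 26.6 in untreated cells. In such bulk RNA a change in the number of cells of a type and a change in RNA per cell cannot be told apart.

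Id2 and Id3 were the members with the widest range over the groups, 6.16 times for Id2 and 5.19 times for Id3 between the highest and the lowest FPKM. Id2 was highest and Id3 lowest in MM401 cells, and Id2 was lowest and Id3 highest in 2i cells. The sequences before their RefSeq starts are shown because these genes carry the main contrast below. They are the 250 bases before the start in RefSeq's GRCm38.p6 annotation, at chr12:25096093-25096342 on the minus strand for Id2 and chr4:136143572-136143821 on the plus strand for Id3. Both stretches lie inside the loci of the deposited tables, which span chr12:25093799-25097140 for Id2 and chr4:136143497-136145755 for Id3, so they are upstream of the RefSeq start used and not of the whole locus. Capitals mark GGCGCC, a GC-rich element bound by BMP-activated SMADs, and CAGAC or its reverse complement, a SMAD binding element, each searched on both strands with no overlap between the motifs.
Id2: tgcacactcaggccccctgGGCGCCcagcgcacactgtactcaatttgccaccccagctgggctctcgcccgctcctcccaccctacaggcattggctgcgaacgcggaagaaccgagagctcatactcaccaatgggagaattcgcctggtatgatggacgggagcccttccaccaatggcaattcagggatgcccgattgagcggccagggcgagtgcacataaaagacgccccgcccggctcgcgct
Id3: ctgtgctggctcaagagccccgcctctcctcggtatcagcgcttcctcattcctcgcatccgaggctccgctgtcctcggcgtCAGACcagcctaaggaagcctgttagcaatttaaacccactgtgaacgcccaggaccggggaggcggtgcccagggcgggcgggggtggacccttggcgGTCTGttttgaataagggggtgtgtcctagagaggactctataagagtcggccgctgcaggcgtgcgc
The Id2 stretch held 1 GGCGCC and 0 CAGAC, and the Id3 stretch held 0 GGCGCC and 2 CAGAC. Of the 10 members, 9 had promoter windows in the table used, which reach from 250 bases before to 50 bases after the start. GGCGCC was in a window of Id2, Id4, Bmpr1a, Smad5 and Smad9, and CAGAC in a window of Id3 and Smad5. Among all 32851 windows of this length 11.9% held GGCGCC and 49.6% held CAGAC. A match is a description of the sequence and shows no binding.

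Id3 had the highest level of the members in 2i cells and differed between every pair of groups by more than the deposited limits. Its FPKM was 29.1 [23.1 to 35.1] in MM401, 46.1 [37.1 to 55.2] in Mll1-deleted, 151 [122 to 179.9] in 2i and 73.9 [59.6 to 88.2] in untreated cells. The order was thus 2i, untreated, Mll1-deleted and MM401, and no neighbours in it had overlapping limits. Id3 was lower in MM401 than in untreated cells, with a log2 ratio of −1.32. In Mll1-deleted cells the ratio was −0.67, which did not pass the 2-fold rule although the limits were apart. In 2i cells the ratio was 1.02, so Id3 was called higher, but only just. With the median of loci at 1 FPKM or more in every group set to 0 it was 0.93, and in the estimated counts 0.94, so that call was lost. The median ratio of the 16 fibroblast markers was 0.39 in MM401, with all 16 above 0, −0.54 in Mll1-deleted, with 15 below 0, and 0.74 in 2i cells, with 5 higher. That of 11 primitive endoderm markers was −0.70 in MM401, −1.29 in Mll1-deleted and −0.07 in 2i cells. The part of either cell type in the Id3 values was not tested. The values rest on 2018 estimated counts in MM401, 3199 in Mll1-deleted, 10624 in 2i and 5157 in untreated cells.

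Id2 showed the reverse order at its ends. Its FPKM was 17.2 [13.8 to 20.6] in MM401, 5.71 [4.41 to 7.02] in Mll1-deleted, 2.79 [2.03 to 3.55] in 2i and 5.25 [4.03 to 6.46] in untreated cells. MM401 cells stood above all other groups and 2i cells below all others, while the limits of Mll1-deleted and untreated cells overlapped. Id2 was higher in MM401 than in untreated cells, 3.28-fold in FPKM with a log2 ratio of 1.54, and the corresponding ratio was 0.10 in Mll1-deleted cells. In 2i cells the ratio was −0.72, with limits apart from the untreated ones, and −1.03 in the estimated counts. The estimated counts were 1833 in MM401, 609.7 in Mll1-deleted, 290.6 in 2i and 561.1 in untreated cells.

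Id4 was the ID gene at its highest in Mll1-deleted cells. Its FPKM was 6.23 [4.79 to 7.66] in MM401, 8.71 [6.78 to 10.6] in Mll1-deleted, 5.19 [3.98 to 6.39] in 2i and 4.51 [3.43 to 5.58] in untreated cells. The limits of Mll1-deleted and untreated cells were apart, but the log2 ratio of 0.82 did not pass the rule. No 2 neighbours in the order of the 4 levels had limits apart. The antisense RNA gene A330033J07Rik overlaps Id4 on the opposite strand and had an FPKM of 1.09 in MM401, 1.96 in Mll1-deleted, 0.781 in 2i and 1.39 in untreated cells. The deposited Id4 locus spans 48044231 to 48266001 on chromosome 13 and so covers that whole antisense gene. In GENCODE M21 Id4 itself starts at 48261228. The sources used here do not say if strand was used in counting, so reads of the pair may not be separated.

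Id1 could not be measured alone. The tables join it with H13, the signal peptide peptidase gene, in 1 locus (chromosome 2, 152669399 to 152737410, mm10), although in GENCODE M21 Id1 lies 27580 bases beyond the end of H13 on the same strand. The joint FPKM was 53.5 [41.4 to 65.5] in MM401, 40.3 [30.7 to 49.9] in Mll1-deleted, 58.0 [44.7 to 71.2] in 2i and 44.7 [34.0 to 55.5] in untreated cells. The limits of all 4 groups overlapped, and the log2 ratios to untreated cells were 0.25 in MM401, −0.15 in Mll1-deleted and 0.37 in 2i cells. The number of estimated counts per unit of FPKM, which follows the length of the transcripts that carry the reads, was 129.9 in MM401, 131 in Mll1-deleted, 145 in 2i and 139 in untreated cells. For comparison, that number was between 69.3 and 70.3 at Id3 and between 211 and 262 at Smad6, neither joined with another gene. Such variation is thus not particular to the joint locus. The parts of Id1 and H13 in the joint value were not separated, so it says little about Id1.

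**Figure D1:**
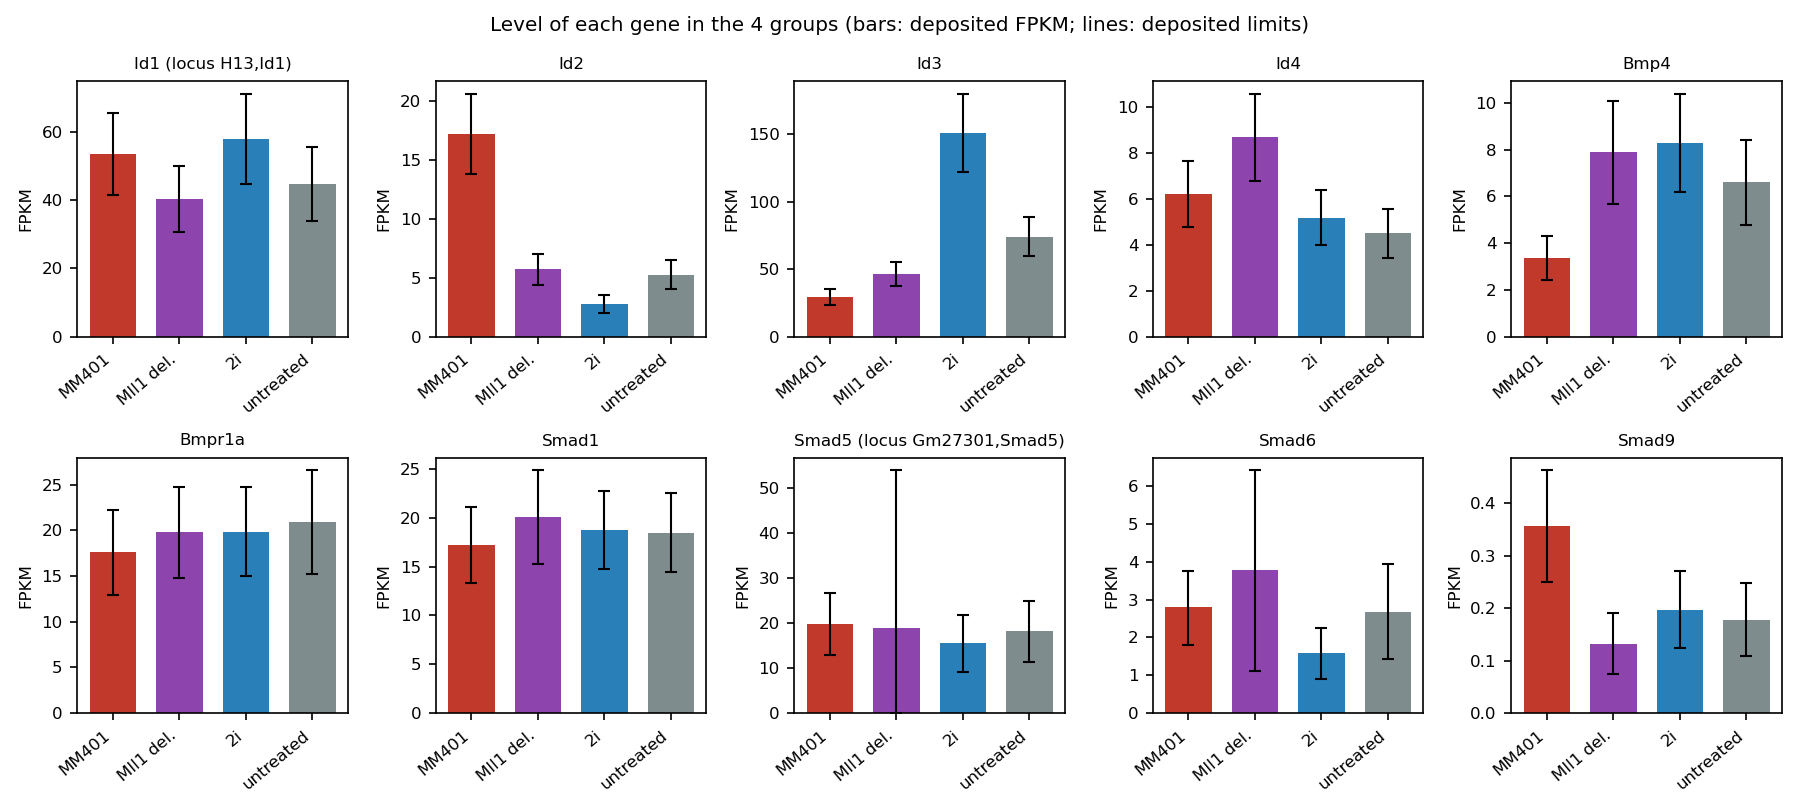
FPKM of each of the 10 genes (vertical axis, from 0, its own scale in each panel) in MM401, Mll1-deleted, 2i and untreated cells. Bars are the deposited group values and lines the deposited limits. Id2 reached 17.2 in MM401 and 2.79 in 2i cells, whereas Id3 was 29.1 in MM401 and 151 in 2i cells.

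Bmp4, the ligand gene, was lowest in MM401 cells. Its FPKM was 3.37 [2.43 to 4.31] in MM401, 7.89 [5.67 to 10.1] in Mll1-deleted, 8.29 [6.18 to 10.4] in 2i and 6.60 [4.79 to 8.41] in untreated cells. The MM401 limits lay below those of each other group, and the other 3 groups overlapped. Against untreated cells the ratio was −0.80 in MM401, 0.23 in Mll1-deleted and 0.29 in 2i cells, all short of the rule. The MM401 level passed it against Mll1-deleted cells at −1.02 and against 2i cells at −1.09. With the median set to 0 as for Id3 these became −0.89 and −0.95, and both calls were lost.

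Bmpr1a and Smad1 were near level over the groups. Bmpr1a, a type I receptor that binds BMP2 and BMP4, had an FPKM of 17.6 [12.9 to 22.2] in MM401, 19.8 [14.8 to 24.7] in Mll1-deleted, 19.8 [15.0 to 24.7] in 2i and 20.9 [15.2 to 26.6] in untreated cells. Smad1 had 17.2 [13.3 to 21.1] in MM401, 20.1 [15.3 to 24.9] in Mll1-deleted, 18.8 [14.8 to 22.8] in 2i and 18.5 [14.5 to 22.6] in untreated cells. The highest group was 1.19 times the lowest for Bmpr1a and 1.17 times for Smad1, and all limits overlapped. Smad5 was 19.7 [12.8 to 26.6] in MM401, 19.0 [0 to 54.0] in Mll1-deleted, 15.5 [9.06 to 21.9] in 2i and 18.2 [11.3 to 25.0] in untreated cells. Its locus also carries Gm27301, a short RNA gene inside Smad5, and the Mll1-deleted limits are too wide to place that group.

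Smad6 and Smad9 were the members at the lowest levels. Smad6, the inhibitory SMAD, had an FPKM of 2.79 [1.81 to 3.76] in MM401, 3.77 [1.12 to 6.42] in Mll1-deleted, 1.58 [0.903 to 2.26] in 2i and 2.67 [1.42 to 3.93] in untreated cells. All its limits overlapped, and the 2i ratio to untreated cells was −0.51. Smad9 was at 0.356 [0.249 to 0.463] in MM401, 0.132 [0.0735 to 0.191] in Mll1-deleted, 0.197 [0.123 to 0.271] in 2i and 0.178 [0.109 to 0.247] in untreated cells. It was the 1 member below the minimum FPKM in every group and entered no comparison. Its highest level was 2.69 times its lowest. The MM401 limits of Smad9 lay above the Mll1-deleted ones and just above the untreated ones, on 186.4 estimated counts in MM401 and 93.2 in untreated cells.

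Counted over the members, 9 of the 10 entered each comparison. In MM401 against untreated cells 1 was higher and 1 lower, beside 13.1% of all 16768 loci compared that passed in either direction, and 3 had limits apart, beside 19.1% of all loci. In Mll1-deleted against untreated cells 0 passed, beside 6.69% of 16235 loci, although Id3 and Id4 had limits apart, as did 8.56% of all loci. In 2i against untreated cells 1 was higher, beside 7.08% of 16039 loci, and 2 had limits apart, beside 10.9%. The median log2 ratio of the 9 members was 0.04 in MM401, 0.10 in Mll1-deleted and 0.02 in 2i cells, and over all loci compared it was −0.04 in MM401, 0.05 in Mll1-deleted and 0.08 in 2i cells. These 3 comparisons share the untreated libraries. With 9 members, such counts do not set the members apart from other loci. Counts against untreated cells in the gene lists below are to be read beside the same shares.

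**Figure D2:**
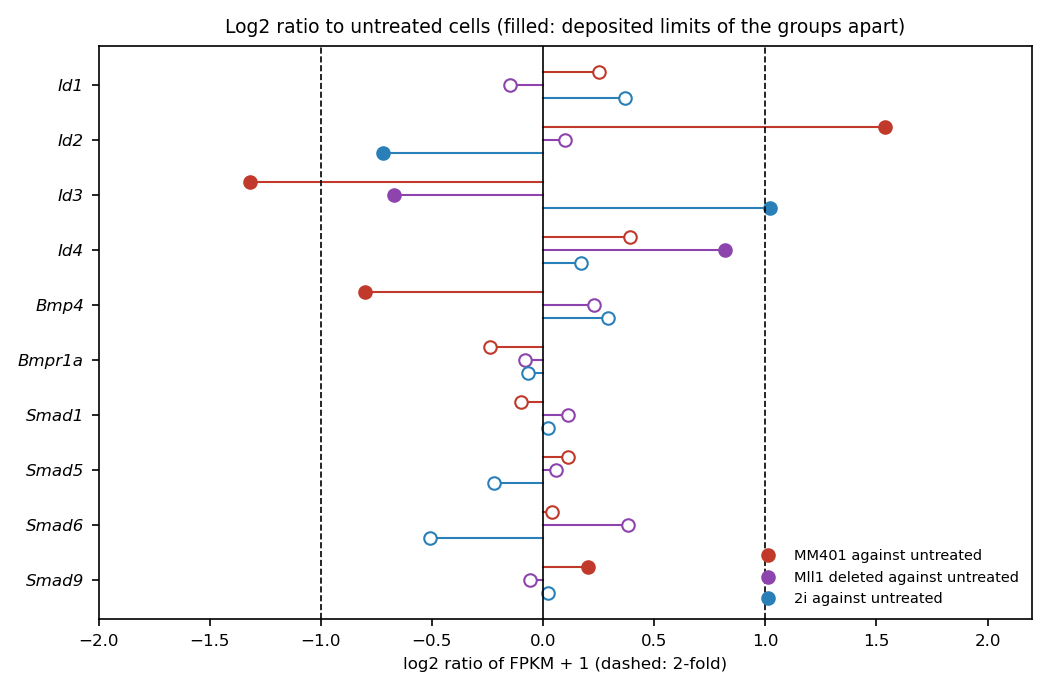
Log2 ratio of FPKM + 1 to untreated cells (horizontal axis) for each gene in MM401, Mll1-deleted and 2i cells. Dashed lines mark 2-fold and filled points have deposited limits apart. Id2 in MM401 (1.54), Id3 in MM401 (−1.32) and Id3 in 2i (1.02) lie beyond the lines.

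Between the treated groups Id2, Id3 and Bmp4 held all the calls among the members. In MM401 against Mll1-deleted cells Id2 was higher (1.44) and Bmp4 lower, beside 10.5% of 16668 loci that passed. With Id3, at a ratio of −0.65, 3 members had limits apart there, beside 15.8% of loci. In MM401 against 2i cells Id2 was higher, with a log2 ratio of 2.26 and 6.16 times the FPKM. Id3 was lower there with a ratio of −2.34, and Bmp4 was lower too. These 3 of 9 stand beside 21.4% of 16775 loci that passed, and all 3 had limits apart, beside 28.1%. In Mll1-deleted against 2i cells Id3 alone passed (−1.69), beside 11.1% of 16224 loci. With Id2 (0.82) and Id4 (0.65), 3 had limits apart in that comparison, beside 16.3% of loci. Id2 passed in the estimated counts (1.08). Smad6 had a ratio of 0.89 with overlapping limits and 1.00 in the estimated counts.

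Genes with profiles most like each ID gene were taken as those at the smallest distance between log2 profiles over the 4 groups, among 10336 loci with 1 name, an FPKM of at least 5 and at least 100 counts in some group. With only 4 values a profile, close matches are easily had. Polk, a DNA polymerase of translesion synthesis, was nearest to Id2 at a distance of 0.20, and Mlxipl (0.23) and Hspa4l (0.24) followed. Hspa4l, a heat shock protein gene, had 11.8 in MM401, 4.82 in Mll1-deleted, 2.04 in 2i and 3.54 FPKM in untreated cells. For Id3 the 3 nearest were Ciart, 2310043M15Rik and Msrb2, each at 0.18. Msrb2, a methionine sulfoxide reductase, had 4.99 in MM401, 9.90 in Mll1-deleted, 32.2 in 2i and 16.5 FPKM in untreated cells. Osbpl10 (0.05), Pla2g5 (0.06) and Vash1 (0.08) were nearest to Id4. Zfp637 (0.04), Fbxw17 (0.04) and Sra1 (0.05) were nearest to the joint Id1 and H13 locus.

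Other BMP ligand genes differed more than Bmp4 in MM401 cells. Bmp7 had an FPKM of 19.8 [15.6 to 24.1] in MM401, 8.92 [6.84 to 11.0] in Mll1-deleted, 5.67 [4.21 to 7.13] in 2i and 4.70 [3.55 to 5.84] in untreated cells. Bmp6 had 6.77 [5.41 to 8.13] in MM401, 2.56 [1.97 to 3.14] in Mll1-deleted, 1.43 [1.06 to 1.80] in 2i and 1.48 [1.10 to 1.86] in untreated cells. Both were higher in MM401 than in untreated cells, with log2 ratios of 1.87 and 1.65. They were the 2 higher among 7 ligand genes compared, with 0 lower, beside 13.1% of all loci that passed in either direction. Both were also higher in MM401 than in Mll1-deleted cells, at 1.07 and 1.13, and than in 2i cells, at 1.64 and 1.68. In Mll1-deleted against untreated cells Bmp7 had a ratio of 0.80 and Bmp6 of 0.52, with limits apart at both. With a pseudocount of 5 in place of 1, Bmp7 still passed in MM401 against untreated cells and Bmp6, at 0.86, did not. Against Mll1-deleted cells neither passed at that setting, with Bmp7 at 0.84 and Bmp6 at 0.64, and against 2i cells Bmp6, at 0.87, did not. Of 16 fibroblast markers 9 were higher in MM401 than in Mll1-deleted cells, with a median of 1.04, beside 10.5% of all loci that passed. In MM401 against 2i cells 0 of the 16 were higher and 3 lower, beside 21.4% of all loci. The part of fibroblasts in the Bmp6 and Bmp7 values was not tested.

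Bmp2 was lowest in Mll1-deleted cells. Its FPKM was 1.25 [0.947 to 1.56] in MM401, 0.529 [0.368 to 0.691] in Mll1-deleted, 1.52 [1.16 to 1.88] in 2i and 2.80 [2.21 to 3.39] in untreated cells. Every treated group lay below the untreated limits, and in Mll1-deleted cells Bmp2 was the 1 ligand gene of 7 past the rule, with a log2 ratio of −1.31, or −0.50 with a pseudocount of 5. In 2i cells none of 5 ligand genes passed, and Bmp2 was at −0.59. In Mll1-deleted against 2i cells Bmp2 was at −0.72 with limits apart and Bmp8b at 0.73 with overlapping limits. The median ratio of the ligand genes compared was 0.57 in MM401, 0.52 in Mll1-deleted and −0.03 in 2i cells. The MM401 median was the value of Bmp8b, which had overlapping limits. Bmp8a and Bmp8b were under 1 FPKM in untreated cells and were compared only through their higher group. In MM401 cells 4 of 7 ligand genes were above 0, and Bmp2 (−0.76), Bmp4 (−0.80) and Gdf6 (−0.37) were below. In Mll1-deleted cells 5 of 7 were above 0, with Bmp2 (−1.31) and Gdf6 (−0.43) below, and 0 passed as higher. Over all loci the median was −0.04 in MM401 and 0.05 in Mll1-deleted cells. The ligand genes thus did not all go in the same direction in either group. Another 7 of the 14 listed ligand genes, Bmp5 and Gdf5 among them, had an FPKM under 1 in all groups.

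BMP antagonist genes, most of them for secreted proteins that bind BMPs outside the cell, were lower in 4 of 11 cases in Mll1-deleted against untreated cells and higher in 0. Over all loci 6.69% passed in that comparison in either direction. Nog, encoding noggin, had an FPKM of 2.06 [1.52 to 2.60] in MM401, 0.681 [0.427 to 0.935] in Mll1-deleted, 2.85 [2.16 to 3.55] in 2i and 4.91 [3.83 to 5.98] in untreated cells. It was lower in Mll1-deleted cells with a log2 ratio of −1.81, and its limits in MM401 and 2i cells also lay below the untreated ones, at −0.95 and −0.62. Cer1, encoding cerberus, which binds both BMP4 and NODAL, had 0.0158 [0 to 0.0592] in MM401, 0.0651 [0.00564 to 0.124] in Mll1-deleted, 0.0157 [0 to 0.0499] in 2i and 3.69 [2.79 to 4.59] in untreated cells. It was thus near 0 in all 3 treated groups and detected at over 1 FPKM in untreated cells alone, with ratios of −2.21 in MM401, −2.14 in Mll1-deleted and −2.21 in 2i cells.

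The remaining antagonist genes past the rule in Mll1-deleted cells were Grem1 and Bmper, named in this comparison after their values were seen. Grem1, encoding gremlin, had an FPKM of 11.3 [9.15 to 13.4] in MM401, 3.02 [2.40 to 3.64] in Mll1-deleted, 5.41 [4.36 to 6.47] in 2i and 11.5 [9.34 to 13.7] in untreated cells. Its ratio to untreated cells was −1.64 in Mll1-deleted cells and −0.96 in 2i cells. Bmper was at −1.38 in Mll1-deleted cells. With a pseudocount of 5, Grem1 still passed there, while Nog (−0.80), Cer1 (−0.78) and Bmper (−0.77) did not. The median of the 11 antagonist genes was −0.56 in Mll1-deleted, −0.03 in MM401 and 0.20 in 2i cells. In Mll1-deleted cells the fibroblast markers had a median of −0.54, with 15 of 16 below 0, and 11 primitive endoderm markers had a median of −1.29, with 8 lower. These summed to 390.1 FPKM in MM401, 217 in Mll1-deleted, 751 in 2i and 483 in untreated cells, with none at 0. Cubn, the remaining marker on that list, was left out because the authors flagged its 2i and untreated values as failed. The part of either cell type in the antagonist values was not tested. In MM401 cells 3 of 11 primitive endoderm markers were lower, and in 2i cells 1 was higher and 1 lower.

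In MM401 against untreated cells 1 antagonist locus was higher and 1 lower. The lower one was Cer1, and the higher one the joint locus of Fstl3 and Fgf22, at 1.05 with overlapping limits. Between treated groups Grem1 was higher in MM401 than in Mll1-deleted cells, at 1.61, and the Fstl3 locus was at 0.99. Twsg1, encoding a BMP-binding protein, was higher in MM401 than in 2i cells (1.06, or 0.93 with a pseudocount of 5), and Bmper lower (−1.05, or −0.90 with the median set to 0 and −0.70 with a pseudocount of 5). In Mll1-deleted against 2i cells Bmper (−1.90), Nog (−1.20) and Fst (−1.10) were lower. Fst encodes follistatin and was named after its values were seen. With a pseudocount of 5, Nog (−0.47) and Fst (−0.72) did not pass. In Mll1-deleted against 2i cells 9 of 16 fibroblast markers were lower, with a median of −1.25. So were 6 of 11 primitive endoderm markers, with a median of −1.34, beside 11.1% of all loci that passed in either direction. The part of either cell type in these values was not tested.

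**Figure D3:**
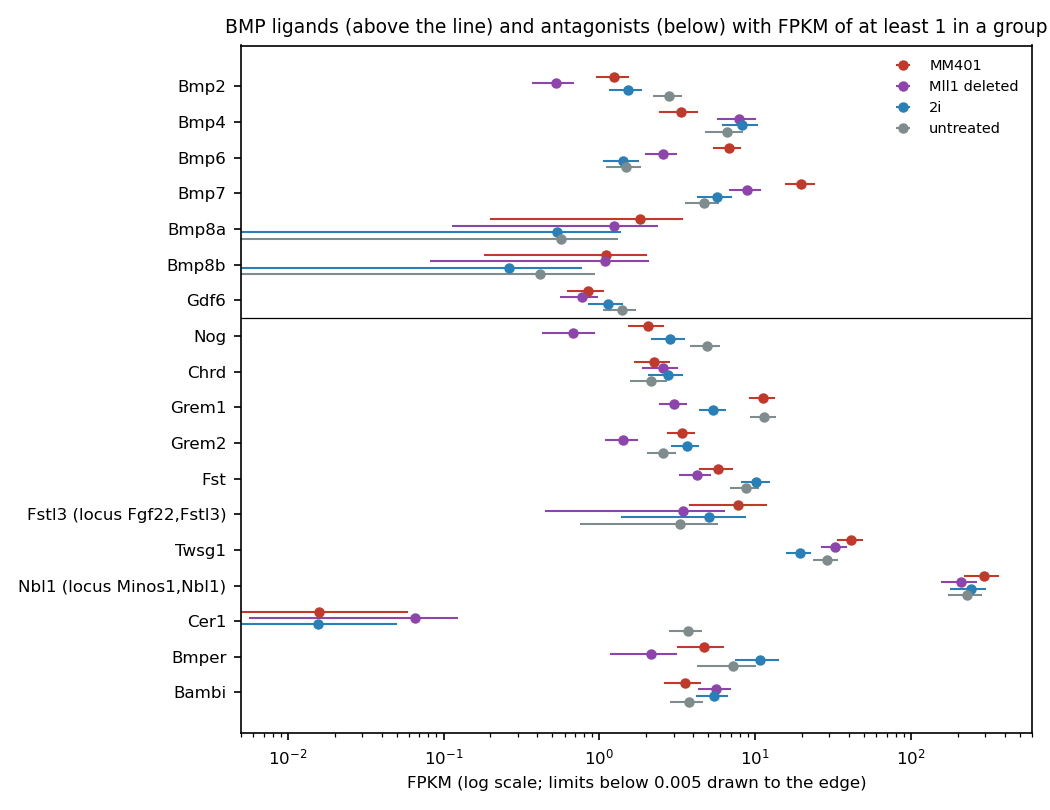
FPKM on a log axis of the BMP ligand genes (above the line) and antagonist genes (below it) with at least 1 FPKM in a group. Points are deposited group values and lines the deposited limits. Bmp6 and Bmp7 are highest in MM401 cells, and Cer1 is near 0 in every group but the untreated one.

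No receptor or co-receptor gene passed the rule in any of the 6 comparisons, with 9 of 10 compared each time. Over all loci 6.69% to 21.4% passed in these comparisons, so with 9 genes a count of 0 does not set the receptor genes apart. The median ratio to untreated cells was 0.13 in MM401, 0.05 in Mll1-deleted and 0.23 in 2i cells. Against untreated cells the widest values were those of Eng, encoding endoglin, at 0.73 in 2i cells, and of the type I receptor gene Acvrl1, at 0.61 in MM401 cells, both with overlapping limits. Rgma, a co-receptor gene, was at 0.58 in MM401 cells, and Acvrl1 at 0.46 in 2i cells. In Mll1-deleted cells the widest were the type II receptor gene Acvr2b at 0.53 and the co-receptor gene Rgmb at −0.31. Between treated groups Eng was at −0.94 in MM401 against 2i and −0.52 in Mll1-deleted against 2i cells. Acvr2b was at −0.52 in MM401 against Mll1-deleted and 0.78 in Mll1-deleted against 2i cells, and Rgma at 0.45 in MM401 against Mll1-deleted cells, all with overlapping limits. Bmpr2, the BMP type II receptor gene, was at 4.73 FPKM in MM401, 3.27 in Mll1-deleted, 3.17 in 2i and 3.13 in untreated cells. Its MM401 limits lay above the untreated ones, at a ratio of 0.47, and above the 2i ones, at 0.46.

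Among 13 SMAD and SMAD regulator loci compared, 0 passed in MM401 and in Mll1-deleted against untreated cells. In 2i cells Skil, encoding a co-repressor that binds SMADs, was lower at −1.13, with 9.23 FPKM in 2i cells against 21.3 in untreated cells. With a pseudocount of 5 its ratio was −0.89 and the call was lost. In Mll1-deleted against 2i cells Skil was at 0.96. Zfp423, a SMAD cofactor gene, had a ratio of −0.98 in MM401 against untreated cells with overlapping limits, and −1.31 in the estimated counts. It was lower in MM401 than in Mll1-deleted cells at −1.07, again with overlapping limits, but at −0.94 with the median set to 0 and −0.80 with a pseudocount of 5. Smad7, the other inhibitory SMAD, had an FPKM of 61.1 [41.5 to 80.7] in MM401, 118 [84.8 to 152] in Mll1-deleted, 91.5 [66.3 to 117] in 2i and 96.2 [68.5 to 124] in untreated cells. MM401 and Mll1-deleted cells had Smad7 limits apart, at a ratio of −0.94. Smad4, the shared partner SMAD, stood between 55.2 and 60.5 FPKM in all groups. The joint Smurf2 and Gm27322 locus had a ratio of 0.75 in MM401 against untreated cells and was higher in MM401 than in 2i cells at 1.12, with limits that reach down to 0 in every group. Tob1, which encodes an antiproliferative protein that binds SMADs, was at −0.53 in 2i against untreated cells and 0.99 in MM401 against 2i cells, with limits apart in both. In Mll1-deleted against untreated cells the widest were Smurf1, a ubiquitin ligase gene, at 0.49 and Smad6 at 0.38.

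Of the 18 listed BMP target genes, 6 of them members, 14 were compared in MM401 against untreated cells. Of the 14, 3 were higher and 1 lower, beside 13.1% of all loci that passed in either direction. Beside Id2 and Id3 these were Dlx3 (1.82) and Gata2 (1.31), transcription factor genes active in trophoblast and ectoderm. Dlx3 had an FPKM of 3.41 [2.67 to 4.14] in MM401, 0.650 [0.443 to 0.856] in Mll1-deleted, 0.234 [0.119 to 0.348] in 2i and 0.246 [0.128 to 0.363] in untreated cells. Gata2, named after its values were seen, had 4.96 [2.84 to 7.07] in MM401 and 1.40 [0 to 2.83] in untreated cells. With a pseudocount of 5 neither passed, at 0.68 for Dlx3 and 0.64 for Gata2. Dlx3 was also higher in MM401 than in Mll1-deleted cells at 1.42, or 0.57 with that pseudocount. The 12 trophectoderm markers summed to 132 FPKM in MM401, 133 in Mll1-deleted, 117 in 2i and 119.6 in untreated cells. Tfap2c alone had 60.5 in MM401 and 51.3 in untreated cells, so the sums say little about markers at low levels. The median FPKM of the 12 was 3.49 in MM401, 4.91 in Mll1-deleted, 1.57 in 2i and 1.76 in untreated cells. Cdx2 was at 0.215 in MM401, 0.171 in Mll1-deleted, 0.148 in 2i and 0.121 in untreated cells. Dlx3 is itself on that list, and of 10 markers compared it alone was higher in MM401 cells, with a median of 0.35. In Mll1-deleted cells 2 of 9 were higher, Hand1 at 2.07 and Krt7 at 1.30, both named after their values were seen, and at 0.87 and 0.63 with a pseudocount of 5. The part of trophectoderm cells in the Dlx3 and Gata2 values was not tested. In Mll1-deleted cells Nog alone of 12 target genes passed, beside 6.69% of all loci, and in 2i cells Id3 alone of 14, beside 7.08%. Dusp9, a phosphatase gene induced by BMP in mouse embryonic stem cells, was at 44.4 in MM401, 70.4 in Mll1-deleted, 41.1 in 2i and 46.9 FPKM in untreated cells. The target gene medians were 0.32 in MM401, 0.34 in Mll1-deleted and 0.05 in 2i cells.

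**Figure D4:**
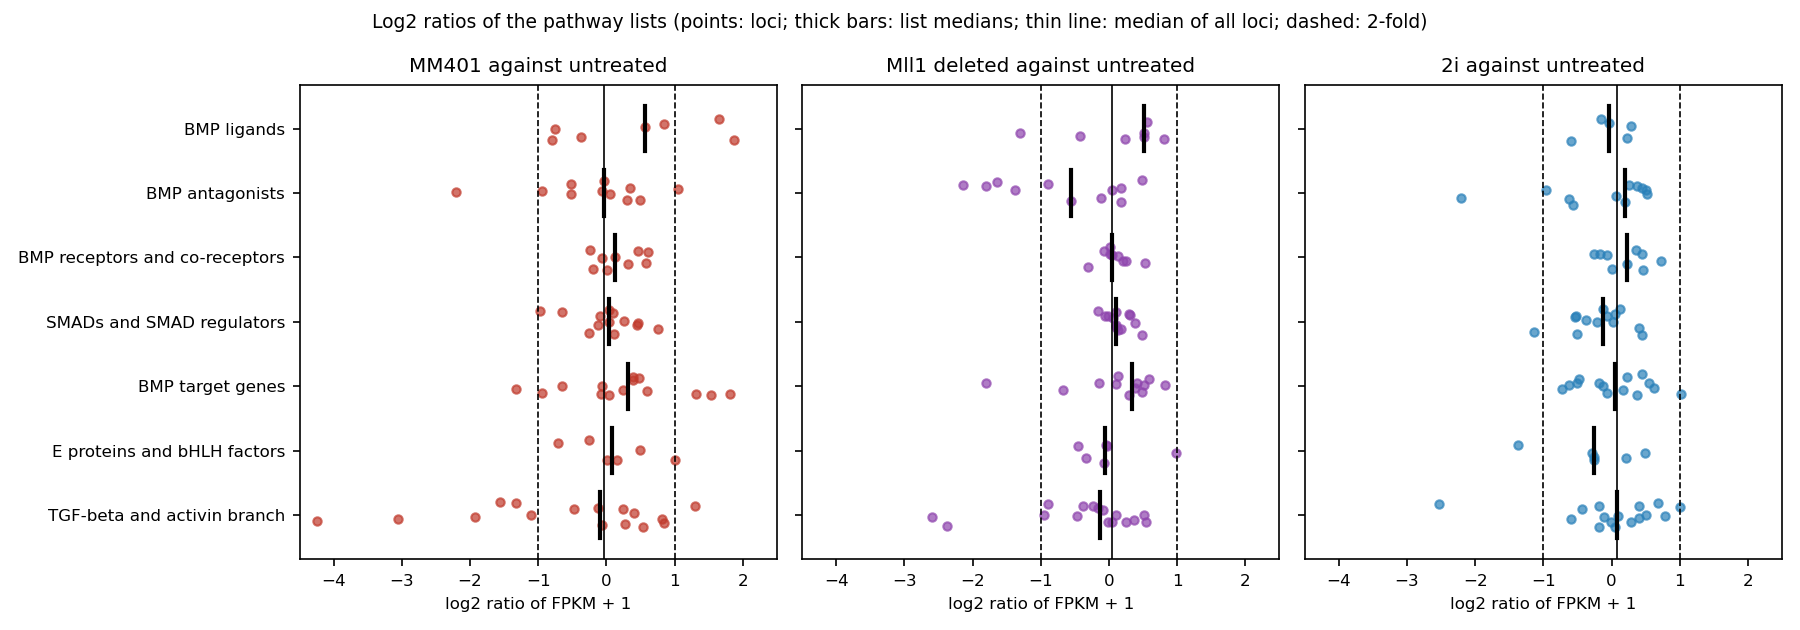
Log2 ratio of FPKM + 1 to untreated cells (horizontal axis) of every compared locus in 7 gene lists, with 1 panel each for MM401, Mll1-deleted and 2i cells. Thick bars are list medians, the thin line the median of all loci and dashed lines 2-fold. The receptor list, with 9 loci compared, stays within the dashed lines in each panel. Over all loci 6.69% to 13.1% lie past those lines in a panel. The antagonist list has 4 of 11 loci below them in Mll1-deleted cells, beside 6.69% of all loci past them in either direction.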

How the data were processed

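RNA from 8 libraries in 4 groups was measured by sequencing. Tools listed in the submitters' processing notes are SAMtools 1.5, TopHat2 2.1.1 and deepTools, and the listed build is mm10. The notes give no roles. The authors deposited, per the file headers, FPKM with lower and upper limits, and estimated counts, which need not be whole, each with 1 column per group. The program that made them, and what the limits cover, are not given in the sources used here. Both libraries of a group were combined by the authors, so no SD, n or p-value is given.

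Log2 ratios of FPKM + 1 were computed over all loci with a gene name (Python 3.11.15, pandas 2.3.3), with the filter and the 2-fold rule given above. For a symbol at several loci, the one with the highest mean FPKM was taken, and values that the authors flagged HIDATA were treated as missing. Values flagged FAIL were kept, and leaving them out was tried after seeing the data. All members were named, and from each of the 7 pathway lists the 2 largest ratios in each comparison. The members, the 7 pathway lists and the 4 marker lists were chosen with earlier results of these data known. Coordinates of loci are from the files, counted from 1. For each ID gene the 3 nearest profiles were named too. Alternatives were other pseudocounts, filters and folds, the estimated counts, centring on the median, limits apart, and summing loci of 1 symbol.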

Additional observations from a re-analysis of the deposited data

How the results depend on the processing

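Among 534 member values under alternative settings, 0 calls turned to the opposite direction. Other pseudocounts, folds and filters cannot change the sign of a ratio, so most of these values could not reverse. Only the estimated counts and centring could change a sign. Ratios near 0 are open to that, such as Smad1 in 2i against untreated cells at 0.02, below the median of 0.10 set to 0 there. Past the threshold were 2 members in Mll1-deleted against untreated cells at 1.5-fold (0 at 2-fold), with none added by the other settings. In 2i against untreated cells (1 at 2-fold) there were 0 with a pseudocount of 5 or with the median set to 0, and 2 at 1.5-fold. In MM401 against Mll1-deleted cells (2 at 2-fold) there was 1 with a pseudocount of 5, in the estimated counts or with the median set to 0. In MM401 against 2i cells Bmp4 lost its call with a pseudocount of 5 (−0.67), in the estimated counts (−0.95) and with the median set to 0 (−0.95). In Mll1-deleted against 2i cells (1 at 2-fold) there were 3 with a pseudocount of 0.1 or in the estimated counts, and 4 at 1.5-fold. Id2 and Id3 in MM401 against untreated cells passed under every setting run. The medians set to 0, of loci at 1 FPKM or more in every group, lay between −0.14 and 0.10. Doing so raised the share of higher calls over all loci, in MM401 against Mll1-deleted cells, to 67.1% beside 52.3%, and in MM401 against 2i cells to 63.7% beside 48.4%.

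Over all loci, MM401 against untreated cells gave 2197 calls, but 3436 with a pseudocount of 0.1, 803 with 5, 1401 at a minimum FPKM of 5, 5833 at 1.5-fold and 1413 with limits apart required. In the same order the counts were 1086, but 1772, 352, 600, 2832 and 575 in Mll1-deleted against untreated cells, and 1136, but 1821, 386, 637, 3611 and 620 in 2i against untreated cells. They were 1758, but 2764, 639, 1153, 4876 and 1078 in MM401 against Mll1-deleted cells, and 1808, but 2884, 622, 1159, 4942 and 1110 in Mll1-deleted against 2i cells. In MM401 against 2i cells 3596 calls became 1527 with a pseudocount of 5 and 8024 at 1.5-fold. Of 183 values of genes named or called in the pathway and marker lists, 66 no longer passed with a pseudocount of 5. A larger pseudocount shrinks the ratios of loci with low FPKM by construction. Leaving out values that the authors flagged FAIL, a setting chosen after seeing the data, changed no call among the members. No paired analysis was possible because the tables hold 1 column per group, and for the same reason leaving out each library was not run.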

Other observations

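In the other branch of the family, through NODAL, activin and TGF-beta, some genes held wider differences than the BMP members. Lefty1, an inhibitor of NODAL, had an FPKM of 9.80 in MM401, 14.0 in Mll1-deleted, 14.6 in 2i and 89.0 in untreated cells, and was lower in each treated group, with log2 ratios of −3.06 in MM401, −2.59 in Mll1-deleted and −2.53 in 2i cells. Lefty2 had 2.08 in MM401, 10.2 in Mll1-deleted, 59.1 in 2i and 57.1 in untreated cells, so that 2i and untreated cells were near each other and the other groups lower, at −4.24 in MM401 and −2.38 in Mll1-deleted cells. Of all 16 genes listed, 6 were lower and 1 higher in MM401, 2 lower and 0 higher in Mll1-deleted, and 1 lower and 0 higher in 2i against untreated cells. Beside these stand the 13.1% of all loci in MM401, 6.69% in Mll1-deleted and 7.08% in 2i cells that passed in either direction. Named after their values were seen, the lower ones in MM401 included Foxh1, a SMAD partner in NODAL signalling, at −1.92, and the co-receptor gene Tdgf1 at −1.56, which also stands on the stem cell marker list. Inhba, an activin subunit gene, was the higher one at 1.30, or 0.87 with a pseudocount of 5, which ends that call. It had 11.9 in MM401, 1.71 in Mll1-deleted, 2.45 in 2i and 4.22 FPKM in untreated cells. Between treated groups the widest were Inhba (2.25) and Tdgf1 (−2.10) in MM401 against Mll1-deleted cells, and Lefty2 (−4.28) and Foxh1 (−2.33) in MM401 against 2i cells. They were Lefty2 (−2.43) and Tgfbr2 (−1.69), the TGF-beta type II receptor gene, in Mll1-deleted against 2i cells. Tgfb3 was at 1.00 in 2i against untreated cells, just short of the rule. The median ratio of the list was −0.10 in MM401, −0.12 in Mll1-deleted and 0.08 in 2i cells. In MM401 cells 3 of 10 stem cell markers were lower, with a median of −0.34, and 11 primitive endoderm markers had a median of −0.70, with 3 lower. In Mll1-deleted cells the endoderm markers had a median of −1.29, with 8 lower. The part of either in these values was not tested.

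The E protein genes Tcf3, Tcf4 and Tcf12, whose products pair with ID proteins, passed the rule in none of the 6 comparisons. Other genes of their list did. Of 6 compared, 2 were higher in MM401 than in 2i cells, beside 21.4% of all loci that passed. In Mll1-deleted against 2i cells 2 of 6 were higher, beside 11.1%. Tcf3, the gene of the E proteins E12 and E47, had an FPKM of 52.7 in MM401, 83.6 in Mll1-deleted, 100.2 in 2i and 86.7 in untreated cells. Its ratio in MM401 cells was −0.71 against untreated, −0.65 against Mll1-deleted and −0.91 against 2i cells. None of these passed the 2-fold rule, though the limits were apart in each. Of 12 listed E protein and basic helix-loop-helix genes 6 were compared, and 0 passed in MM401 and in Mll1-deleted cells against untreated cells. Tcf4, another E protein gene, was at −0.45 in Mll1-deleted and Hes1, a NOTCH target gene, at 0.49 in 2i cells. In 2i cells the joint locus of Neurod1 and Cerkl was lower at −1.37, or −0.75 with a pseudocount of 5, which ends that call. That locus was at 0.83 in MM401 against Mll1-deleted cells, higher in MM401 than in 2i cells at 1.86, and higher in Mll1-deleted than in 2i cells at 1.03 with overlapping limits, or 0.54 with that pseudocount. The joint locus of Ascl2 and Tspan32os, with 5.14 in MM401, 5.09 in Mll1-deleted, 1.56 in 2i and 2.07 FPKM in untreated cells, was higher in MM401 and in Mll1-deleted than in 2i cells, at 1.26 in MM401 and 1.25 in Mll1-deleted cells. With a pseudocount of 5 these were 0.63 and 0.62, and the calls were lost. Against untreated cells it was at 1.00 in MM401 and 0.99 in Mll1-deleted cells, both just short of the rule. The median ratio of the list was 0.09 in MM401, −0.07 in Mll1-deleted and −0.26 in 2i cells.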
